A study of Homo sapiens with 6 samples.

Results

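TMEM45A is the linear host gene of circTMEM45A, a circular RNA made by back-splicing of its exons. The data were read here for 10 listed genes among the 29816 genes of the table: TMEM45A, its paralog TMEM45B on chromosome 11, and 8 genes near TMEM45A on 3q12 (TBC1D23, NIT2, TOMM70, LNP1, TFG, ABI3BP, SENP7 and NFKBIZ). They are listed by name and position, and all 10 were found; the listing was made with earlier results of these data known, so the counts below are descriptions. The study used KYSE-150, an established line of human esophageal squamous cell carcinoma. Cells were transfected with a control small interfering RNA (si-NC, 3 libraries) or with one aimed at the circular RNA (si-circTMEM45A, 3 libraries), and polyA RNA was sequenced. No untransfected group was analysed here, the labels give neither dose nor time nor the siRNA sequence, and a single siRNA label stands for the knockdown. They also do not say whether the 3 libraries of a group came from separate cultures, so every p-value below rests on library-to-library spread that could be purely technical.

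Circular RNAs lack a 3′ end and so carry no polyA tail. An siRNA against a circle is usually placed over its back-splice junction, which the linear messenger RNA lacks; the labels do not say where this one lies. The gene-level values combine all reads assigned to a gene, and the circle was not measured separately, so the TMEM45A value comes from RNA selected for polyA tails and does not check the knockdown of the circle. TMEM45A encodes a multi-pass membrane protein known from the upper layers of stratified epithelium and from cells under low oxygen. The neighbours have unrelated jobs: NIT2 is an omega-amidase, TOMM70 a receptor of mitochondrial protein import, TFG a scaffold of endoplasmic reticulum exit sites, SENP7 a SUMO protease, TBC1D23 a tether at the trans-Golgi and NFKBIZ the gene of the nuclear NF-κB regulator IκBζ.

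The libraries held 16636248 to 17323964 reads assigned to genes, recovered as whole numbers from the deposited FPKM (fragments per kilobase of exon, scaled to library depth). The 12676 genes that reached 1 FPKM in 3 or more libraries entered the test, made by limma on log2(FPKM + 1) with Benjamini-Hochberg adjustment over all of them, and a gene is called below where that adjusted p was under 0.05. In this fit 18.8% of all tested genes were called, 11.1% higher and 7.64% lower with si-circTMEM45A. The groups of 3 did not overlap for 39.2% of tested genes. With median-of-ratios scaling the calls were 1078 higher and 1206 lower, against 1411 and 969 as reported. The squamous markers KRT5 (231 to 373 FPKM) and TP63 (18.6 to 28.4 FPKM) were present in all libraries, while KRT6A and SOX2 stayed under 1 FPKM. The summed squamous markers (5 genes, with KRT5 making up most of the sum) were 389 to 413 FPKM in si-NC and 257 to 279 FPKM in si-circTMEM45A. The part of these markers in the results below was not tested. In such bulk RNA, fewer cells of a kind and less RNA per cell cannot be told apart.

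The start-site windows of the host gene and of NFKBIZ, which was not called, are shown first, so that the letters stand beside the levels. Windows of 250 bases before the annotated start were read from RefSeq (GRCh38.p14), where 8 of the 10 genes matched. The TMEM45A window (chr3:100492369-100492618, + strand, intergenic) had 72.8% GC and 26 CpG, against medians of 58% and 11 over 35116 such windows. Capitals mark 2 CCAAT boxes, 90 and 59 bases before the start; CCAAT was searched on both strands and occurred in 32.0% of all windows.

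TMEM45A: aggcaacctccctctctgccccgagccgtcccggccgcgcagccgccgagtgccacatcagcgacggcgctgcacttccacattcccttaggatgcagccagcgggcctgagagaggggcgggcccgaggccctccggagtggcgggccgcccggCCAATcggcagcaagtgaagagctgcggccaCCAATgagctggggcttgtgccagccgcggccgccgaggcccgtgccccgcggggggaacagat

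ACGTG, a form of the hypoxia response element core, was not found on either strand of this window and occurred in 18.5% of all windows. The other form, GCGTG, was not searched. NFKBIZ has 2 annotated start windows. The outer one, printed here (chr3:101827740-101827989, + strand, intergenic), had 56.0% GC and 12 CpG. Capitals mark its match to the NF-κB consensus, 213 bases before the start, a motif with a match in 5.21% of all windows.

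NFKBIZ: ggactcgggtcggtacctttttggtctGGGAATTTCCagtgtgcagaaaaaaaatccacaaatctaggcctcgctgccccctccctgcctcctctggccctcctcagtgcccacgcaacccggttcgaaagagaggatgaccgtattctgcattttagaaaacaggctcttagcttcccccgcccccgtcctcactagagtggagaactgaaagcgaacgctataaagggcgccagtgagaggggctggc

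The second NFKBIZ window (chr3:101849264-101849513, + strand), inside the gene, had 73.6% GC and 34 CpG, a CCAAT box 74 bases and an NF-κB consensus match 229 bases before its start. These matches describe letters, not binding, and no binding was measured. The window of NIT2 (chr3:100334507-100334756, + strand), not printed, had 63.2% GC and 22 CpG and no CCAAT or NF-κB consensus match.

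The host gene was lower after si-circTMEM45A. TMEM45A (ENSG00000181458, chr3:100492619-100577444, + strand, GRCh38) was at 3.26, 2.90 and 3.19 FPKM in the si-NC libraries and at 2.34, 1.91 and 2.11 FPKM with si-circTMEM45A. Every knockdown library lay below every control library. The group means were 3.12 ± 0.19 and 2.12 ± 0.22 FPKM (SD, n = 3 each), a level that fell by 32.0%. On log2(FPKM + 1) the difference was -0.40 ± 0.08 (SE; limma, adjusted p = 0.0167), a scale that understates the change of a gene this low. The values rested on 331, 290 and 325 reads in si-NC and on 242, 194 and 219 reads in si-circTMEM45A. Permuting the 6 FPKM values exactly (two-sided) returned p = 0.1, and no smaller p can come from 3 libraries a side. A difference as low or lower was found in 3.13% of all tested genes. The call was lost, with the direction kept, without si-NC replicate 1 (adjusted p = 0.0587), si-NC replicate 3 (0.0569), si-circTMEM45A replicate 2 (0.0505) or replicate 3 (0.0523), and with no filter on low values (0.0614).

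Which RNA these reads came from cannot be told from a gene-level value. The annotation (GENCODE 29) gives TMEM45A 7 transcripts, of which 3 are protein coding. Their combined exons span 6005 bases, and FPKM was divided by that length. A single retained-intron transcript, TMEM45A-207, supplies 3455 of those bases (57.5%) that lie in no other transcript. Divided by the 1910 bases of the longest coding transcript instead, the same reads gave 9.81 in si-NC and 6.67 in si-circTMEM45A on an FPKM scale. This changes the level and leaves the ratio between groups as it was.

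The paralog TMEM45B, an epithelial membrane protein gene (ENSG00000151715, chr11:129815819-129860003, + strand), did not reach 1 FPKM in any library and was therefore not tested. It was at 0.254, 0.397 and 0.370 FPKM in si-NC and at 0.615, 0.666 and 0.420 FPKM in si-circTMEM45A. The groups did not overlap, and all 3 knockdown values were above all 3 controls, the opposite order to TMEM45A. The totals behind them were 52 and 88 reads. The exact permutation p was 0.1, and in the fit with no filter on low values the log2 difference was 0.22 ± 0.10 (SE; limma, adjusted p = 0.33), so the difference was not resolved at this depth.

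Of the 8 listed genes that passed the filter, 1 was called lower (TMEM45A), 1 was called higher (NIT2) and 6 were not called, a count near the 18.8% called among all tested genes. The groups did not overlap for 4 of the 8, against the 39.2% of all tested genes. The median log2 difference of the 7 tested neighbours was 0.10, and that of all tested genes was 0.03.

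**Figure D1:**
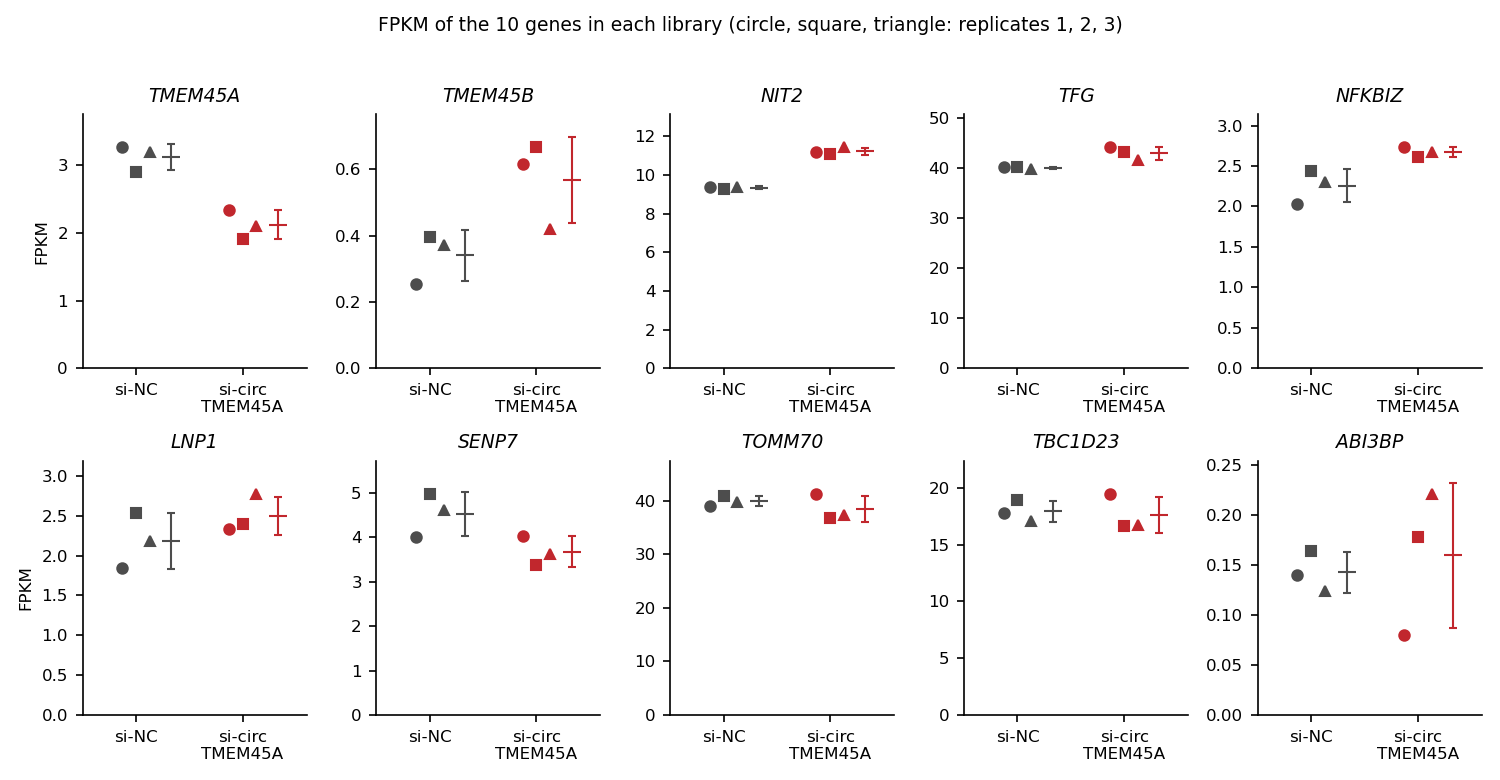
FPKM of each of the 10 listed genes (vertical axes, 1 panel a gene, each from 0) in the 3 si-NC and the 3 si-circTMEM45A libraries; symbols are libraries, and the crossbar with its error bar is the mean ± SD. TMEM45A fell from 3.12 to 2.12 FPKM, NIT2 rose from 9.34 to 11.23 FPKM, and the libraries of TOMM70, LNP1, SENP7, TBC1D23 and ABI3BP overlapped between groups.

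Among the metabolic and mitochondrial neighbours, NIT2 rose and TOMM70 was not called. NIT2 (ENSG00000114021, chr3:100334701-100361635, + strand), which hydrolyses alpha-ketoglutaramate made during glutamine transamination, was at 9.37, 9.25 and 9.38 FPKM in si-NC and at 11.17, 11.08 and 11.43 FPKM in si-circTMEM45A. Each knockdown library stood above each control, and both sets were tight. The means were 9.34 ± 0.072 and 11.23 ± 0.180 FPKM (SD, n = 3 each), 20.3% higher, with a log2 difference of 0.24 ± 0.04 (SE; limma, adjusted p = 0.00745). NIT2 was called under each of the 16 alternative settings run for it, with adjusted p from 0.000458 to 0.0336. TOMM70 (ENSG00000154174, chr3:100363431-100401398, - strand), which receives preproteins at the mitochondrial outer membrane, was at 39.1, 40.9 and 39.8 FPKM in si-NC and at 41.3, 36.8 and 37.4 FPKM in si-circTMEM45A. Its highest value and its lowest were both knockdown libraries, and the log2 difference was -0.05 ± 0.05 (SE; limma, adjusted p = 0.499).

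Neither of the trafficking genes was called. TFG (ENSG00000114354, chr3:100709331-100748966, + strand) was at 40.3, 40.2 and 39.9 FPKM in si-NC and at 44.2, 43.3 and 41.7 FPKM in si-circTMEM45A. All 3 knockdown values were above the controls, by a small amount and with a wider spread (40.1 ± 0.20 and 43.1 ± 1.29 FPKM, SD, n = 3 each). The log2 difference of 0.10 ± 0.04 (SE) missed the threshold (limma, adjusted p = 0.0929). TBC1D23 (ENSG00000036054, chr3:100261000-100325251, + strand), which bridges golgins and endosome-derived vesicles, was at 17.7, 18.9 and 17.1 FPKM in si-NC and at 19.4, 16.6 and 16.7 FPKM in si-circTMEM45A. The groups overlapped, with a log2 difference of -0.03 ± 0.07 (SE; limma, adjusted p = 0.814).

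The 2 nuclear regulators were not called either. SENP7 (ENSG00000138468, chr3:101324205-101513241, - strand), which trims SUMO chains, was at 4.00, 4.97 and 4.61 FPKM in si-NC and at 4.04, 3.36 and 3.63 FPKM in si-circTMEM45A. Knockdown library 1 lay just above the lowest control, and the other two below all controls. The means were 4.53 ± 0.49 and 3.68 ± 0.34 FPKM (SD, n = 3 each), and the log2 difference was -0.24 ± 0.09 (SE; limma, adjusted p = 0.1005). It passed the threshold only in limma-voom on the recovered reads (-0.30, adjusted p = 0.0216), an alternative added after seeing the data. NFKBIZ (ENSG00000144802, chr3:101827991-101861022, + strand), whose promoter letters are given above, was at 2.04, 2.43 and 2.30 FPKM in si-NC and at 2.73, 2.61 and 2.67 FPKM in si-circTMEM45A. All knockdown libraries were above all controls, and the log2 difference of 0.17 ± 0.08 (SE) was not called (limma, adjusted p = 0.154).

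The remaining neighbours were low. LNP1 (ENSG00000206535, chr3:100401193-100456319, + strand), named for its fusion to NUP98 in leukemia, was at 1.84, 2.54 and 2.18 FPKM in si-NC and at 2.33, 2.40 and 2.77 FPKM in si-circTMEM45A, from 70 to 108 reads a library. The groups overlapped (log2 difference 0.14 ± 0.10, SE; limma, adjusted p = 0.392). LNP1 overlaps the 5′ end of TOMM70 by 206 bases on the other strand, and whether the counting used strand is not given in the sources used here. ABI3BP (ENSG00000154175, chr3:100749156-100993515, - strand), a gene of an extracellular matrix protein, stayed between 0.079 and 0.221 FPKM, or 15 to 42 reads, and was not tested. Its lowest and its highest value were both in si-circTMEM45A libraries.

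By mean FPKM over the 6 libraries the order was TFG (41.6), TOMM70 (39.2), TBC1D23 (17.8), NIT2 (10.3), SENP7 (4.10), TMEM45A (2.62), NFKBIZ (2.46), LNP1 (2.34), TMEM45B (0.454) and ABI3BP (0.151). The library ranges of TFG and TOMM70 overlapped, and so did those of TMEM45A, NFKBIZ and LNP1. TMEM45A ranked at the 22.8th percentile of tested genes by mean FPKM. Per kilobase of the longest coding transcript, TMEM45A (8.24) stood above SENP7 (5.31) and NFKBIZ (3.71), so its place in this order depends on which length is used.

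The knockdown libraries took the highest and lowest places unevenly among the tested genes of this stretch of chromosome 3. Library 1 of si-circTMEM45A was the highest of its group in 6 of the 8 tested listed genes and in 14 of the 20 tested genes within 2 Mb of TMEM45A, against 41.3% of all tested genes. Library 2 was the lowest of its group in 6 of the 8 and in 12 of the 20, against 35.2% of all tested genes. The 8 are all among the 20, and no other stretch was compared, so the unevenness is not shown to be particular to this one. The part of these libraries in the results was not tested beyond leaving each library out.

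The 2 Mb on either side of TMEM45A hold 71 annotated genes, of which 41 were in the table and 20 were tested. Apart from TMEM45A, 2 of the 19 were higher, 4 were lower and 13 were not called, beside 11.1% higher and 7.64% lower among all tested genes. The genes next to TMEM45A (LNP1 at 36.3 kb, TOMM70 at 91.2 kb, NIT2 at 131 kb and TFG at 132 kb) included 1 higher call, NIT2, and no lower one.

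NXPE3 (chr3:101779202-101827392, + strand), which ends 598 bases before NFKBIZ, had the lowest log2 difference of the 20. It was at 4.75, 4.27 and 4.05 FPKM in si-NC and at 2.45, 2.48 and 2.51 FPKM in si-circTMEM45A, with a log2 difference of -0.62 ± 0.07 (SE; limma, adjusted p = 0.0024). DCBLD2 (chr3:98795941-98901689, - strand), a gene of a neuropilin-like membrane receptor, had the highest. It was at 2.72, 2.83 and 3.09 FPKM in si-NC and at 4.78, 4.50 and 4.90 FPKM in si-circTMEM45A, with a log2 difference of 0.56 ± 0.06 (SE; limma, adjusted p = 0.0026). Both were called in each of the 15 alternatives run for them, and both sit over 1 Mb from TMEM45A.

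The other 3 lower genes of the window were less firm. CPOX, an enzyme of heme synthesis, went from 13.6 ± 0.78 to 10.6 ± 1.16 FPKM (SD, n = 3 each; limma, adjusted p = 0.0279). PCNP, a nuclear protein gene, went from 58.4 ± 3.12 to 48.3 ± 4.04 FPKM (limma, adjusted p = 0.0314). CEP97, which caps centrioles, went from 5.46 ± 0.13 to 4.51 ± 0.33 FPKM (limma, adjusted p = 0.0381). CPOX lost its call when control library 2, control library 3 or knockdown library 2 was left out (adjusted p 0.0698 to 0.0848). PCNP lost it without control library 1 or 2 or knockdown library 2 or 3 (0.0827 to 0.0941), and CEP97 without any single library other than knockdown library 1 (0.0781 to 0.114). All 3 also lost it with no filter on low values (0.096 to 0.106), and PCNP with no variance trend (0.0587). The tested genes of the window that were neither listed nor called were CLDND1, CMSS1, TRMT10C, RPS18P5, ZBTB11, ZBTB11-AS1 and RPL24. RPS18P5 is a pseudogene inside PCNP, and ZBTB11-AS1 overlaps ZBTB11 by 1021 bases on the other strand, so their values are uncertain.

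**Figure D2:**
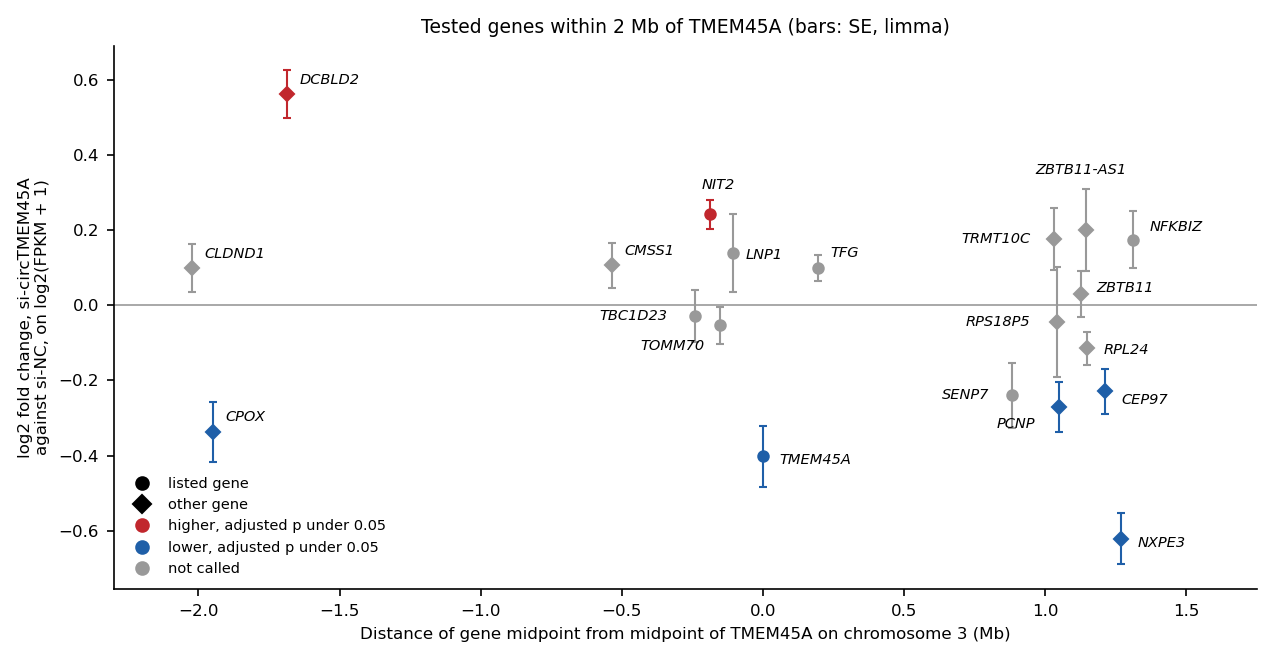
log2 difference on log2(FPKM + 1), si-circTMEM45A against si-NC, with its SE from limma (vertical axis), for the 20 tested genes within 2 Mb of TMEM45A by distance of midpoints in Mb (horizontal axis); circles are listed genes, diamonds others, and colour gives the call. TMEM45A (-0.40) lay between neighbours that were not called or higher, and NXPE3 (-0.62) and DCBLD2 (0.56) held the extremes.

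**Figure D3:**
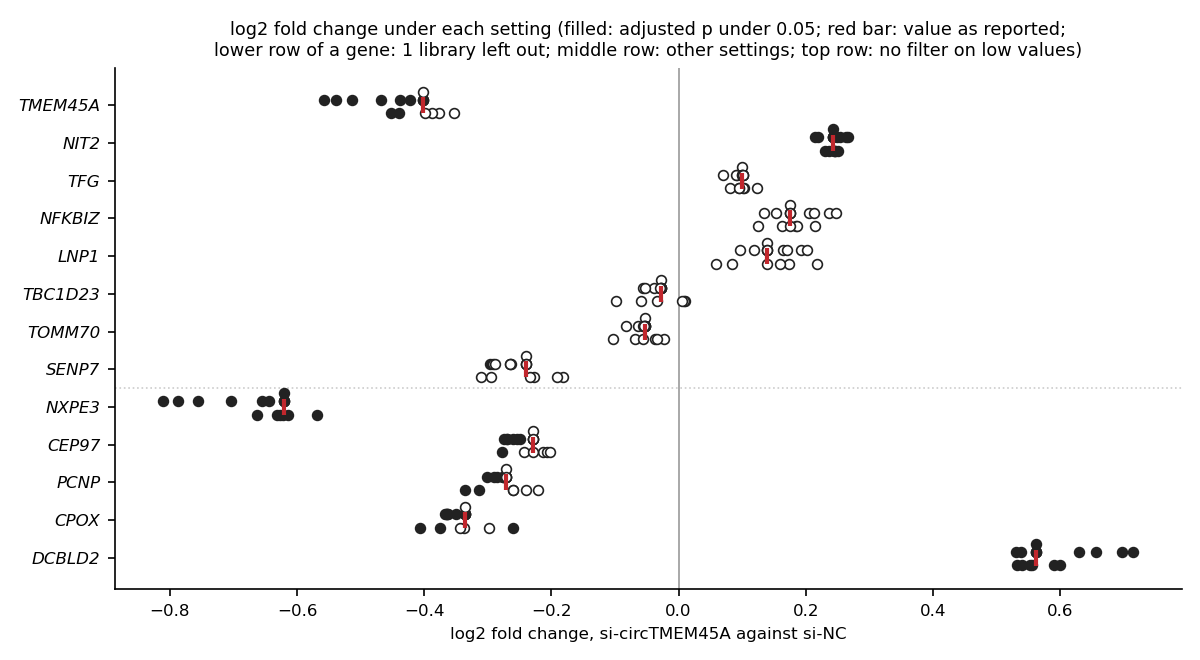
log2 difference of the 8 tested listed genes and the 5 other called genes of the window under each setting (horizontal axis; genes on the vertical axis); each circle is 1 setting, filled where the adjusted p was under 0.05, and the red bar is the value as reported. NIT2, NXPE3 and DCBLD2 are filled throughout, TMEM45A is open in 5 settings, and TBC1D23 lies on both sides of 0.

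Genes that work with the listed ones were read from lists made by function. TMEM45A is often counted among the genes of the response to low oxygen. Of 14 such genes tested, 6 were lower and 0 higher (median log2 difference -0.13, against 0.03 over all tested genes, of which 7.64% were lower and 11.1% higher). The list holds 2 genes of hypoxia-inducible factors, HIF1A and EPAS1, beside the responding genes. CA9, a carbonic anhydrase, fell from 4.75 ± 0.41 to 2.26 ± 0.33 FPKM (limma, adjusted p = 0.0026). LDHA, which makes lactate, fell from 153 ± 8.55 to 118 ± 1.53 FPKM (limma, adjusted p = 0.0032), and the transcription factor gene BHLHE40 fell from 28.1 ± 0.92 to 18.7 ± 0.61 FPKM (limma, adjusted p = 0.00078; all SD, n = 3 each). The other lower calls were NDRG1 (limma, adjusted p = 0.0143), BNIP3 (0.0175) and HIF1A (0.0177). The 8 genes not called had log2 differences from -0.14 (PDK1) to 0.12 (EPAS1). Between these were ADM (-0.13), SLC2A1 (-0.04), PGK1 (-0.03), HK2 (0.02), P4HA1 (0.06) and VEGFA (0.09). Of 7 tested genes of keratinocyte identity and differentiation, 3 were lower and 0 higher (median -0.17; 7.64% and 11.1% among all tested genes): the basal keratin genes KRT5 (360 ± 11.6 to 238 ± 10.6 FPKM) and KRT14 (10.7 ± 0.57 to 6.47 ± 0.30 FPKM) and TP63 (27.8 ± 0.84 to 20.7 ± 1.79 FPKM). These 3 are basal-layer genes. As a background for what follows, the groups did not overlap for 39.2% of all tested genes. Of the list's other tested genes, none called, 2 of the upper layers had higher values in every knockdown library than in every control, chosen here after their values were seen: KLF4, a transcription factor gene (4.07 ± 0.53 to 5.08 ± 0.12 FPKM; limma, adjusted p = 0.0601), and TGM1, a cross-linking enzyme of the cornified envelope (2.43 ± 0.51 to 3.21 ± 0.21 FPKM; 0.117). The list's other genes of the upper layers did not share this: KRT10 (25.4 to 25.0 FPKM) and GRHL3 (1.40 to 1.14 FPKM) overlapped between groups. FLG, too low to be tested, went the other way without overlap (0.578 to 0.298 FPKM). CA9, LDHA, BHLHE40, KRT5, KRT14 and TP63 were each called under every alternative run for them. NDRG1, BNIP3 and HIF1A were not examined in this way.

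Among the partners of NFKBIZ, the IκB and NF-κB genes had a count of calls near the 18.8% called among all tested genes. Of 11 tested IκB and NF-κB subunit genes, NFKBIB, an inhibitor, rose from 16.1 ± 0.64 to 23.3 ± 1.13 FPKM (limma, adjusted p = 0.0016), NFKB1 fell from 10.8 ± 0.064 to 9.71 ± 0.071 FPKM (0.0406) and 9 were not called. The NFKB1 call was lost on leaving out any 1 library (adjusted p 0.0742 to 0.109). Of 16 known IκBζ targets in the table only 5 were expressed enough to test, and 2 were called, both higher, beside 11.1% higher among all tested genes. IL6 was at 1.37, 1.02 and 1.23 FPKM in si-NC and at 4.16, 3.18 and 2.76 FPKM in si-circTMEM45A (limma, adjusted p = 0.0044). S100A9, a calprotectin subunit, went from 4.30 ± 0.89 to 7.47 ± 1.31 FPKM (limma, adjusted p = 0.0228), a call lost without 1 library, si-circTMEM45A replicate 2 (0.0611). The other tested targets were not called, and their groups overlapped: LCN2 (log2 difference -0.10), ZC3H12A (0.06) and CXCL2 (0.16).

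Around SENP7, 3 of 12 tested SUMO proteases and SUMO pathway genes were lower and 0 higher (median -0.03), beside 7.64% lower and 11.1% higher among all tested genes. UBA2, a subunit of the SUMO-activating enzyme, fell from 36.8 ± 0.92 to 30.6 ± 0.28 FPKM (limma, adjusted p = 0.0042). SENP1, another SUMO protease, fell from 6.06 ± 0.18 to 4.86 ± 0.11 FPKM (limma, adjusted p = 0.0112). SUMO3 went from 53.4 ± 1.69 to 47.7 ± 2.00 FPKM (limma, adjusted p = 0.0419), a call lost in 5 of the 6 fits that leave out a library (0.0573 to 0.119).

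Most calls in the other partner lists were lost in several of the fits with a library left out. Their counts stand beside the 18.8% called among all tested genes, 11.1% higher and 7.64% lower. Of 8 tested TOM complex and chaperone genes around TOMM70, 2 were higher (median 0.03): the cytosolic chaperone HSPA8 (184 ± 13.4 to 221 ± 7.69 FPKM; limma, adjusted p = 0.0181) and the receptor TOMM22 (40.9 ± 1.35 to 45.4 ± 0.77 FPKM; 0.0364), which lost the call in 3 and 5 of the 6 fits with a library left out. Of 15 tested coat and exit-site genes around TFG, PREB was higher (20.3 ± 0.96 to 23.4 ± 0.21 FPKM; limma, adjusted p = 0.0226) and SAR1A lower (19.97 ± 0.62 to 17.5 ± 0.87 FPKM; 0.0429). Of 12 tested golgin and WASH partners of TBC1D23, WDR11 was lower (9.12 ± 0.23 to 7.88 ± 0.12 FPKM; limma, adjusted p = 0.023). Of 8 tested relatives of NIT2, NIT2 itself was higher and KYAT1, a transaminase of the same glutamine route, lower (7.29 ± 0.72 to 5.64 ± 0.47 FPKM; limma, adjusted p = 0.0359). Of 3 tested genes around ABI3BP, ABI1 was lower (29.7 ± 1.04 to 26.4 ± 0.86 FPKM; limma, adjusted p = 0.0358). PREB and KYAT1 lost their calls in 4, and SAR1A, WDR11 and ABI1 in 5, of the 6 fits with a library left out. Over the whole table these fits called 1341 to 1945 genes, against 2380 as reported. With no filter on low values, HSPA8, TOMM22, SUMO3, S100A9, SAR1A, KYAT1 and ABI1 also lost theirs (adjusted p 0.0659 to 0.117). With no variance trend, TOMM22, SUMO3, NFKB1, SAR1A, KYAT1 and ABI1 lost theirs (0.053 to 0.0823). TOMM22 was also lost under median-of-ratios (0.0709) and quantile (0.0803) scaling, KYAT1 with TPM (0.0517) and NFKB1 with limma-voom (0.05).

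**Figure D4:**
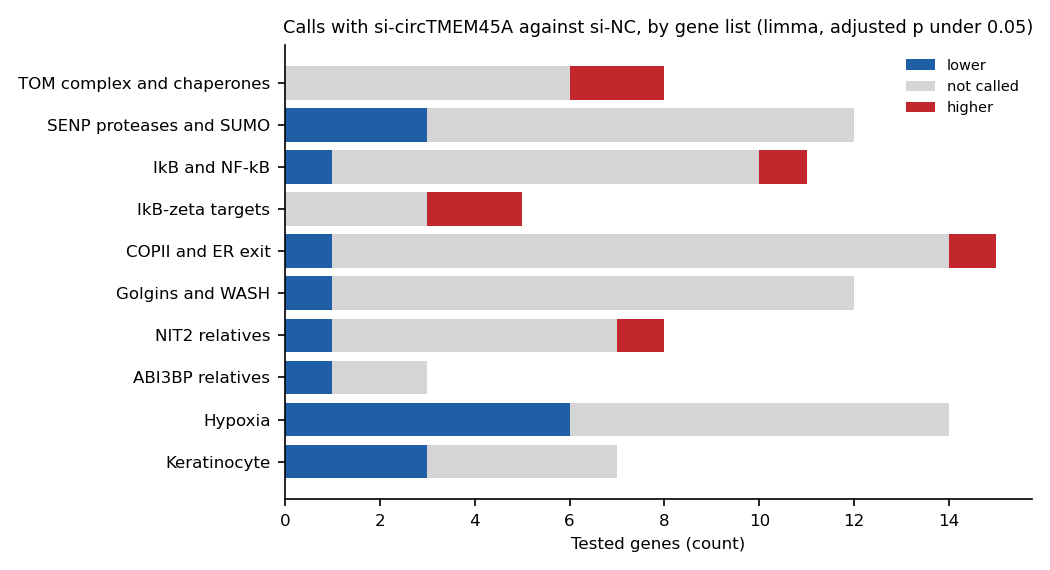
Number of tested genes in each functional list (horizontal axis, a count from 0; lists on the vertical axis), split into genes called lower (blue), not called (grey) and called higher (red) with si-circTMEM45A. The low-oxygen list has 6 lower of 14 and the keratinocyte list 3 lower of 7, both with none higher. Among all tested genes 7.64% were lower and 11.1% higher. The lists were chosen with earlier results of these data known.

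Genes whose levels followed TMEM45A most closely over the 6 libraries were ranked by Pearson r of log2(FPKM + 1), a description of 6 points that share depth and the difference between groups. The 5 highest were AJUBA (0.996), SOAT1 (0.995), LRRC1 (0.994), SMARCD3 (0.993) and CRYBG1 (0.992). The 5 lowest were MPV17 (-0.998), CDYL (-0.997), GMPR2 (-0.995), PYGO2 (-0.994) and SMAP2 (-0.993). Values over 0.9 were common, found in 723 of 12675 other genes (5.70%), and values under -0.9 were found in 786. Among the listed neighbours r was -0.93 for NIT2, -0.85 for NFKBIZ, -0.80 for TFG, -0.66 for LNP1, 0.29 for TBC1D23, 0.58 for TOMM70 and 0.76 for SENP7. Of the other tested genes in the window, NXPE3 (0.94), CEP97 (0.93) and PCNP (0.90) had the highest r, and DCBLD2 (-0.91) and ZBTB11-AS1 (-0.85) the lowest.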

How the data were processed

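PolyA RNA-seq values were used as the authors deposited them, in FPKM per Ensembl gene. The submitters' processing notes name cutadapt 1.9, HISAT2 2.2.1, TopHat2, StringTie 2.1.6, HTSeq and GRCh38, without their roles; annotation release and strand setting: not given in the sources used here. FPKM multiplied by GENCODE 29 exon length and library total came out whole for 100% of values (tolerance 0.001 reads), so that release was used for symbols and positions. Groups came from the sample titles.

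The whole table was fitted in limma 3.58.1 (R 4.3.3) with a mean-variance trend, on log2(FPKM + 1), with genes of at least 1 FPKM in at least 3 libraries and a two-sided threshold of 0.05 after Benjamini-Hochberg adjustment. The script was tested on simulated data. Tables and plots used Python 3.11.15. Named were all listed genes, tested genes in the window, the 3 called genes with the smallest p in each functional list, and the 5 genes most and least like TMEM45A. Further genes of the low-oxygen, keratinocyte and IκBζ target lists were named after their values were seen. The members and lists were chosen with earlier results of these data known. Alternatives were pseudocounts of 0.1 and 0.5, no filter, at least 5 FPKM, no trend, quantile scaling, scaling by median of ratios, TPM, a replicate block, each library left out and, added after seeing the data, limma-voom on recovered reads. Promoter windows came from RefSeq; 2 listed genes had none.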

Additional observations from a re-analysis of the deposited data

How the results depend on the processing

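The 2380 called genes became 1254 with no filter on low values, 1341 to 1945 with each library left out and 3529 with limma-voom on recovered reads, where more genes were tested. Median-of-ratios and quantile scaling kept the number of calls (2284 and 2287) and moved the higher share of calls from 59.3% to 47.2% and 48.9%. Of the listed genes, 2 were called as reported, 1 with no filter, 1 with at least 5 FPKM (where TMEM45A is too low to be tested), and 1 to 2 with each library left out. The TMEM45A log2 difference was -0.40 with no filter (limma, adjusted p = 0.0614) and -0.45 to -0.35 with each library left out. TBC1D23, not called under any setting, ranged from -0.10 to 0.0093 with each library left out, and was above 0 without control library 2 (0.0093), knockdown library 2 (0.0089) or knockdown library 3 (0.0056). The cause was not tested. Whether the replicate numbers in the titles pair the samples is not stated. In deviations from the group means, same-numbered libraries correlated at 0.026, 0.011 and 0.047, and different-numbered ones at -0.046 to 0.018. All were weak, though each knockdown library had its highest r with the control of the same number. With the number as a replicate block, 1720 genes were called, TMEM45A (-0.40, limma, adjusted p = 0.0312) and NIT2 (0.24, adjusted p = 0.0291) among them. Of the other called genes examined under the alternatives, CEP97 (limma, adjusted p = 0.0793), TOMM22 (0.0579), NFKB1 (0.0941), SAR1A (0.0661), WDR11 (0.0587) and ABI1 (0.0502) were not. Depth limits what can be said of TMEM45B and ABI3BP, with fewer than 50 reads in every library.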
